A study of Mus musculus with 7 samples.

Results

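The Cyp4a genes of the mouse encode microsomal cytochromes P450 that hydroxylate the terminal (omega) carbon of fatty acids. Their 6 members on the arrays, Cyp4a10, Cyp4a14, Cyp4a31, Cyp4a32, Cyp4a12a and Cyp4a12b, were taken by gene name among the non-control probes, which gave 10 probes of 55681 and 6 of 36492 gene names. Livers of 3 WT and 4 SHIVA mice, all females on the C57BL/6 background, aged 8 to 12 weeks and deprived of food for 24 h, were each hybridised to a single-colour Agilent array of their own. SHIVA mice carry a Sox17 mutation that arose in an ENU mutagenesis screen, and the study's methods state that viable mutants were heterozygous. The mutation is in the germ line, so that every tissue carries it, and the 4 SHIVA mice stand for 1 mutant line. Fed mice were not analysed here, so the values compare fasted livers with each other and not the response to fasting.

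Omega-hydroxylated fatty acids are oxidised further to dicarboxylic acids, which peroxisomes shorten by beta-oxidation. Cyp4a10, Cyp4a14, Cyp4a31 and Cyp4a32 are textbook targets of PPARα, the nuclear receptor that responds to fatty acids and to fibrates, and Cyp4a10 and Cyp4a14 are widely used as markers of its activity in the fasted liver. Cyp4a12a and Cyp4a12b are known instead for dependence on androgens, with higher levels in males, and Cyp4a12a for making hydroxyeicosatetraenoic acid from arachidonic acid. The genes lie in a cluster on chromosome 4, and several of them are close copies of one another.

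Probe sequences show how close the copies are. The pair of 60-base probes below lies at the same place in Cyp4a10 and Cyp4a31, at bases 1193 and 1158 of the transcripts they were designed on, and the capitals mark the bases at which the 2 probes are unequal. They are shown because the array has to tell these genes apart by such bases.
Cyp4a10 (A_55_P2092030): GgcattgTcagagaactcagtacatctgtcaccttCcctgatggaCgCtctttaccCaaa
Cyp4a31 (A_55_P1952399): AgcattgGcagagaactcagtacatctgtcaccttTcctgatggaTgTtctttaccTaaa
Counted from the 5′ end, the substitutions from the Cyp4a10 to the Cyp4a31 probe were G1A, T8G, C36T, C46T, C48T and C57T, 6 in 60 bases. The forward primer of a qRT-PCR for Cyp4a10 covers base 20 to base 49 of the Cyp4a10 probe, and 3 of its 30 bases, again in capitals, are unequal in the Cyp4a31 probe.
Cyp4a10 forward primer: gtacatctgtcaccttCcctgatggaCgCt
Near the 3′ end of the transcripts, probe A_51_P254895 of Cyp4a10 and probe A_55_P2050628 of Cyp4a31 overlapped by 47 bases, with 3 of them unequal. The design file lists accessions of both Cyp4a10 and Cyp4a32 for A_55_P2092030, of both Cyp4a10 and Cyp4a31 for A_55_P2024033, and of both Cyp4a12a and Cyp4a12b for A_55_P2043083. How much RNA of one copy binds the probe of another was not tested, so the values of Cyp4a10, Cyp4a31 and Cyp4a32 are not independent readings of 3 genes.

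Values are log2 quantile-normalised signals, and a fold change is SHIVA over WT on that scale unless stated otherwise. The Cyp4a genes fell into a strongly lit group, Cyp4a10, Cyp4a14, Cyp4a31 and Cyp4a32, and a pair near the background, Cyp4a12a and Cyp4a12b. All 8 probes of the first group were well above background on all 7 arrays and had a lower mean in SHIVA than in WT livers, by log2 values from -2.27 to -1.19. In 7 of the 8 the genotypes did not overlap, against 12.0% of all probes tested in either direction and 6.15% in the lower direction. At an adjusted p under 0.05 limma called 0 of the 5 Cyp4a genes tested, against 0.375% of all 20002 genes tested, and 0 of their 9 probes, against 0.232% of 26258 probes, so that none of these differences passed the test over all genes. At an unadjusted p under 0.05 limma gave 4 of the 5 Cyp4a genes, where 13.3% of all genes did so. RNA was taken from whole liver, in which fewer cells of a type and less RNA per cell cannot be told apart.

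**Figure D1:**
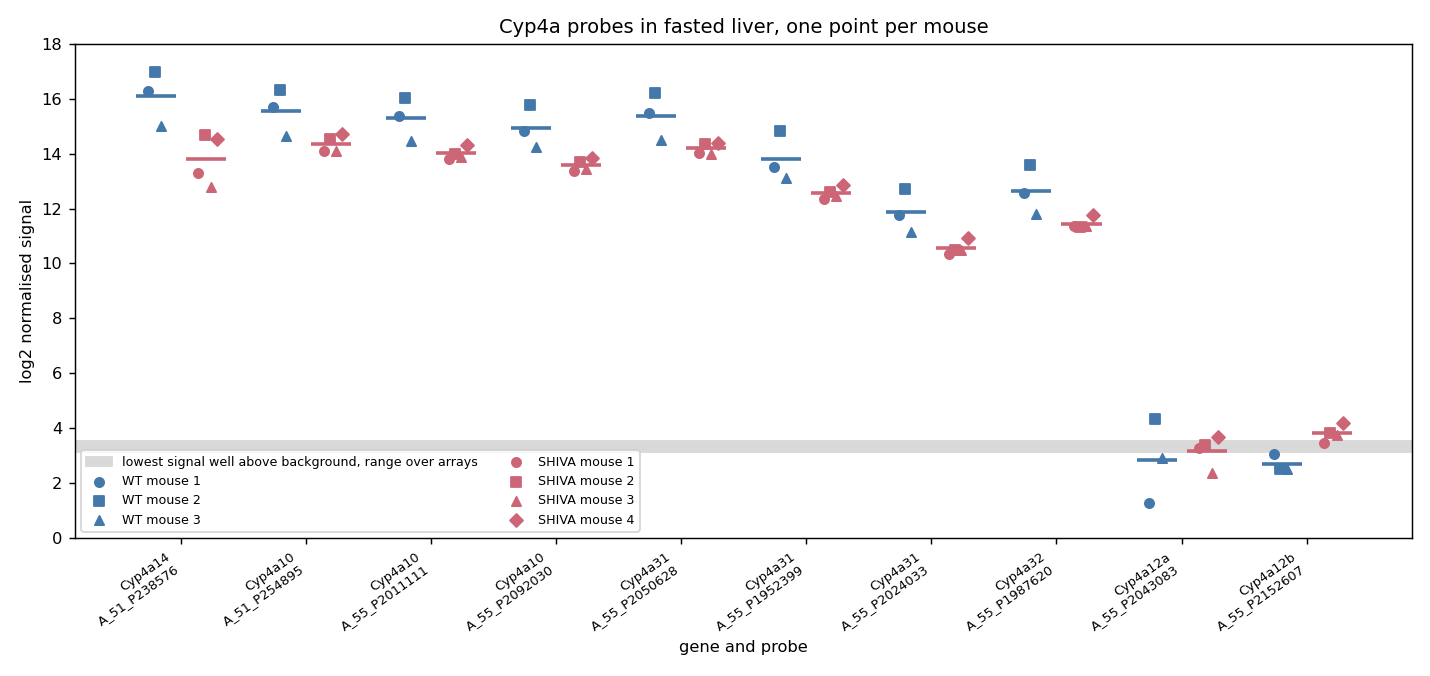
Log2 normalised signal of the 10 Cyp4a probes (x axis: gene and probe) in 3 WT livers (blue) and 4 SHIVA livers (red), with 1 point per mouse, the shape of the point giving the mouse number and the horizontal line the group mean. The grey band is the range over the 7 arrays of the lowest signal well above background, log2 3.12 to 3.54, and the probes of Cyp4a12a and Cyp4a12b lie at this band while the other 8 probes lie far above it, each with its SHIVA mean below its WT mean.

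Cyp4a14 showed the largest difference of the family. Its probe A_51_P238576 lies on chromosome 4 of mm9 from 115158914 to 115158973, on the minus strand, at base 2326 of the transcript and so near its 3′ end. The signal was 16.30, 16.97 and 15.03 in WT mice 1 to 3 and 13.30, 14.67, 12.79 and 14.54 in SHIVA mice 1 to 4. No SHIVA liver reached a WT liver, and the highest SHIVA value, of mouse 2, came within 0.36 of the lowest WT value, of mouse 3. The means were 16.10 ± 0.98 (SD, n = 3) and 13.82 ± 0.92 (SD, n = 4), a log2 fold change of -2.27 (standard error, SE, 0.57, adjusted p = 0.164, limma with Benjamini-Hochberg adjustment). This is 4.83-fold more in WT livers, with a 95% confidence interval from 1.97 to 11.8. An exact permutation test of the genotypes, two-sided, gave p = 0.0286, the smallest that 3 mice against 4 allow, for this gene alone and not adjusted. By size of fold change Cyp4a14 was number 11 from the lowest of 20002 genes.

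The SHIVA livers were not alike in Cyp4a14. Measured from the WT mean, the signal was 6.96-fold lower in SHIVA mouse 1 and 9.87-fold lower in SHIVA mouse 3, but 2.69-fold lower in mouse 2 and 2.95-fold lower in mouse 4. The spread of Cyp4a14 stood at percentile 98.3 of all genes tested in WT and at percentile 98.3 in SHIVA livers, where the median SD over genes was 0.25 and 0.23. The order with SHIVA mice 2 and 4 above mice 1 and 3 held in 24.5% of the 19961 genes tested with a value on every array.

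Cyp4a10, a classic marker of PPARα activity, was read by 3 probes. The probe that stands for the gene, A_51_P254895 (115206200 to 115206259 of chromosome 4, base 2031 of the transcript), gave 15.72, 16.33 and 14.63 in WT mice 1 to 3 and 14.10, 14.53, 14.10 and 14.72 in SHIVA mice 1 to 4. The ranges overlapped, since WT mouse 3 was below SHIVA mouse 4. The means of 15.56 ± 0.86 (SD, n = 3) and 14.36 ± 0.31 (SD, n = 4) differed by a log2 fold change of -1.20 (SE 0.37, adjusted p = 0.233, limma), 2.29-fold more in WT with an interval from 1.28 to 4.10, and the exact permutation test gave p = 0.0571.

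The other Cyp4a10 probes showed the same order of mice within each genotype, and in both WT mouse 3 was above SHIVA mouse 4, so that the genotypes did not overlap. Probe A_55_P2011111 (115206150 to 115206209) gave 15.37, 16.05 and 14.48 in WT and 13.82, 14.00, 13.90 and 14.33 in SHIVA livers, for a log2 fold change of -1.29 (SE 0.33, adjusted p = 0.186 over all probes, limma). The probe printed above, A_55_P2092030 (115198463 to 115198522), gave 14.83, 15.77 and 14.24 in WT and 13.37, 13.68, 13.43 and 13.85 in SHIVA livers, for a log2 fold change of -1.36 (SE 0.33, adjusted p = 0.154 over all probes, limma).

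Cyp4a31, a close copy of Cyp4a10, was also read by 3 probes. Probe A_55_P2050628 (115251553 to 115251612, base 1982), which stands for the gene, gave 15.47, 16.22 and 14.49 in WT and 14.01, 14.36, 14.01 and 14.40 in SHIVA livers. WT mouse 3 was the lowest of the WT livers and was above SHIVA mouse 4 by 0.09. The log2 fold change was -1.20 (SE 0.36, adjusted p = 0.225, limma), 2.30-fold more in WT with an interval from 1.31 to 4.03.

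The remaining Cyp4a31 probes lie further from the 3′ end and gave log2 fold changes of -1.25 and -1.32. Probe A_55_P1952399 (115243923 to 115243982), printed above beside its Cyp4a10 counterpart, gave 13.51, 14.84 and 13.11 in WT and 12.33, 12.61, 12.48 and 12.87 in SHIVA livers (adjusted p = 0.234 over all probes, limma). Probe A_55_P2024033 (115242872 to 115242931, base 713) gave 11.78, 12.72 and 11.16 in WT and 10.34, 10.50, 10.51 and 10.92 in SHIVA livers (adjusted p = 0.178 over all probes, limma). Its sequence is shown because it is a single stretch for which the design lists accessions of both genes, Cyp4a10 and Cyp4a31, so that it can report their sum.
Cyp4a31 (A_55_P2024033): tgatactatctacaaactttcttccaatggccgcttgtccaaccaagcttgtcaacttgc

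Cyp4a32, another inducible copy, was read by probe A_55_P1987620 (115294852 to 115294911, base 1794). The signal was 12.57, 13.57 and 11.79 in WT mice 1 to 3 and 11.35, 11.32, 11.37 and 11.78 in SHIVA mice 1 to 4. The genotypes did not overlap, but WT mouse 3 and SHIVA mouse 4 were next to equal. The log2 fold change was -1.19 (SE 0.37, adjusted p = 0.233, limma), 2.28-fold more in WT with an interval from 1.28 to 4.07.

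**Figure D2:**
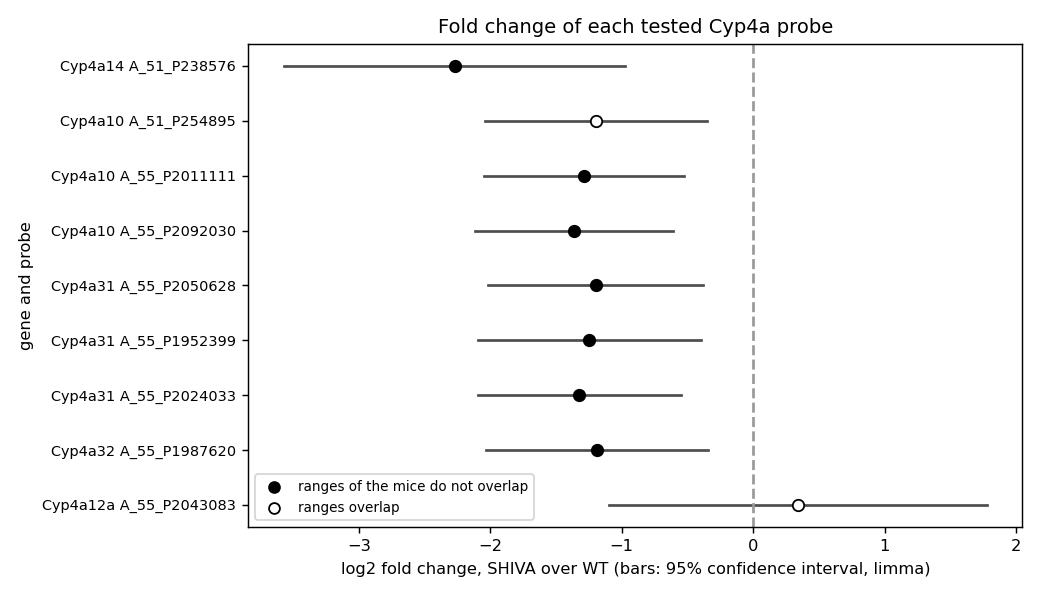
Log2 fold change of SHIVA over WT (x axis) of the 9 Cyp4a probes tested (y axis), with the 95% confidence interval from limma as the bar, filled where the 3 WT and 4 SHIVA livers do not overlap and open where they do. The Cyp4a14 probe is at -2.27, the 7 probes of Cyp4a10, Cyp4a31 and Cyp4a32 are between -1.36 and -1.19, and the Cyp4a12a probe is at 0.34 with an interval that spans 0.

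Among the WT mice the 8 probes had the same extremes. WT mouse 3 had the lowest and WT mouse 2 the highest WT signal in 8 of 8 probes, an order found in 15.4% of the 19961 genes with a value on every array. The WT SDs of the 8 probes lay between 0.77 and 0.98, where Cyp4a10, Cyp4a31 and Cyp4a32 stood at percentiles 97.3 to 97.6 of all genes. In SHIVA livers the 7 probes of Cyp4a10, Cyp4a31 and Cyp4a32 had SDs from 0.21 to 0.31, below their WT SDs, and percentiles of 46.0 to 68.4 for the genes. SHIVA mouse 4 was the highest of its group in these 7 probes, while in Cyp4a14 it was mouse 2. The lowest SHIVA liver was mouse 3 in Cyp4a14 and mouse 2 in Cyp4a32.

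Because WT mouse 3 lay closest to the SHIVA livers, it bears on each value. Without it the log2 fold changes were -1.66 for Cyp4a10 (adjusted p = 0.0286), -1.65 for Cyp4a31 (adjusted p = 0.0255) and -1.62 for Cyp4a32 (adjusted p = 0.0400), all past the threshold of limma, and -2.81 for Cyp4a14 (adjusted p = 0.0503), which was not. Calls were more frequent over all genes too without this mouse, 416 or 2.1% of 19784 genes tested against 75 of 20002 with all mice. Without WT mouse 2, the highest, they were -0.81 for Cyp4a10, -0.79 for Cyp4a31, -0.72 for Cyp4a32 and -1.84 for Cyp4a14, and none passed. The sign held with each of the 7 mice left out.

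**Figure D3:**
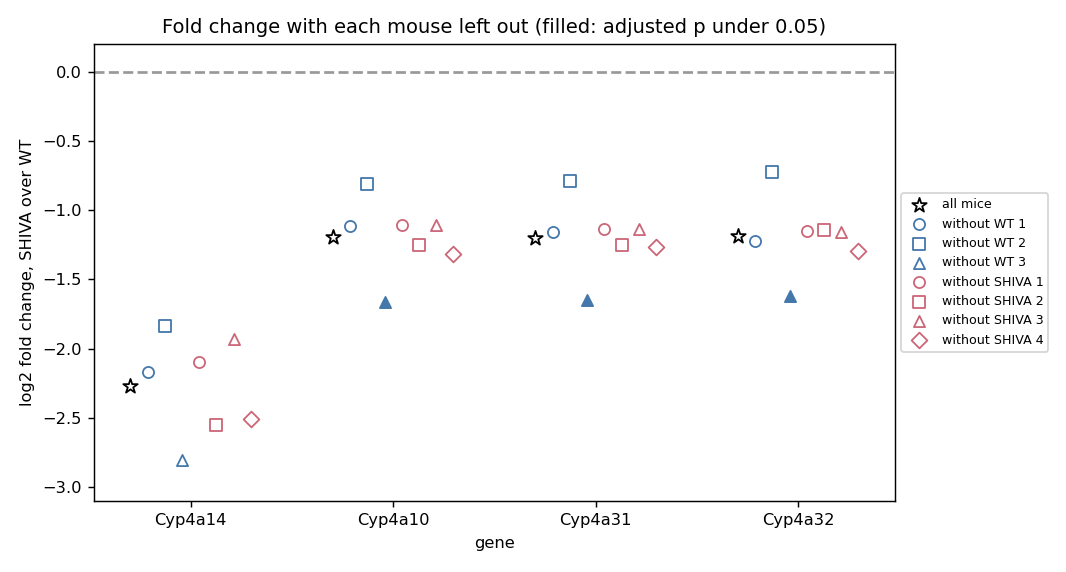
Log2 fold change of SHIVA over WT (y axis) of Cyp4a14, Cyp4a10, Cyp4a31 and Cyp4a32 (x axis) with all mice (star) and with each WT (blue) or SHIVA (red) mouse left out, filled where the adjusted p of limma is under 0.05. All values are below 0, the highest without WT mouse 2 and the lowest without WT mouse 3, and the filled points are those of Cyp4a10, Cyp4a31 and Cyp4a32 without WT mouse 3.

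Whether Cyp4a14 differed more between the genotypes than its copies was asked within each mouse, as the difference of log2 signals, whose level has no meaning between probes but whose change does. Cyp4a14 minus Cyp4a10 was 0.58, 0.63 and 0.40 in WT mice 1 to 3 and -0.80, 0.14, -1.31 and -0.18 in SHIVA mice 1 to 4. The ranges did not overlap. Relative to Cyp4a14, Cyp4a10 was higher by 1.07 on the log2 scale in SHIVA than in WT livers. The exact permutation test gave p = 0.0571, and 0.143 after adjustment over the 10 pairs of tested Cyp4a genes, of which 0 passed at 0.05 (at 3 mice against 4 the smallest unadjusted p is 0.0286). Cyp4a14 minus Cyp4a31 changed by -1.07 (exact p = 0.0857, adjusted 0.143) with no overlap, and Cyp4a14 minus Cyp4a32 by -1.08 (exact p = 0.114, adjusted 0.163) with overlap. Among Cyp4a10, Cyp4a31 and Cyp4a32 the 3 pairs changed unequally by at most 0.01 in size (exact p from 0.943 to 1), and by up to 0.11 with other background corrections, with within-group SDs of these differences between 0.07 and 0.22. Whether the probe of one copy also binds RNA of another was not tested. These near-equal values therefore do not show that the 3 genes changed alike.

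**Figure D4:**
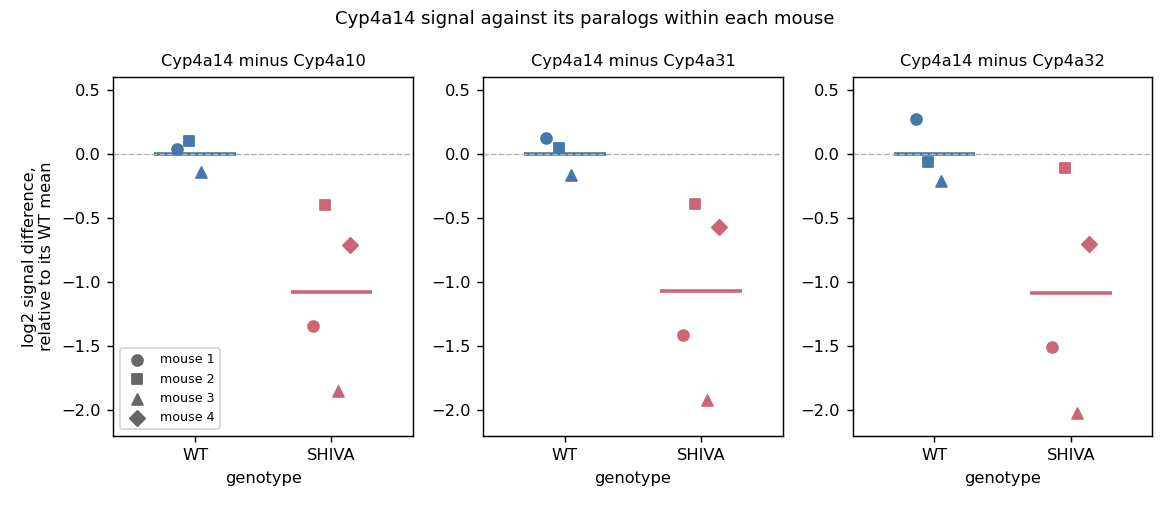
Difference of log2 signal between Cyp4a14 and Cyp4a10, Cyp4a31 or Cyp4a32 within each mouse (y axis, set so that the WT mean is 0) in 3 WT (blue) and 4 SHIVA (red) livers (x axis), with lines at the group means. The SHIVA mean lies between -1.08 and -1.07 in each panel, with SHIVA mice 1 and 3 the lowest and SHIVA mouse 2 the nearest to the WT livers.

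Cyp4a12a and Cyp4a12b, the androgen-dependent members, were near the background in these female livers. Cyp4a12a, by probe A_55_P2043083 (115005258 to 115005317), gave 1.29, 4.32 and 2.93 in WT and 3.28, 3.40, 2.37 and 3.69 in SHIVA livers, and was well above background only in WT mouse 2 and SHIVA mice 2 and 4. The genotypes overlapped fully, with a log2 fold change of 0.34 (SE 0.63, adjusted p = 0.860, limma) that turned sign in some of the other settings. Cyp4a12b, by probe A_55_P2152607 (115111580 to 115111639), gave 3.06, 2.52 and 2.53 in WT and 3.47, 3.83, 3.76 and 4.18 in SHIVA livers and was well above background in 0 of 3 WT livers and in SHIVA mice 2 and 4.

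Every SHIVA liver was above every WT liver in Cyp4a12b. Its mean was 3.81 ± 0.29 (SD, n = 4) in SHIVA livers and 2.70 ± 0.31 (SD, n = 3) in WT livers. The lowest signals well above background on the WT arrays had a mean log2 of 3.48. SHIVA mice 1 and 3 were not well above background, so these signals give no sure lower bound for the fold difference. Cyp4a12b was not among the genes tested, having passed the background limit on fewer than 3 arrays.

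Genes around the cluster lay near the median of all genes. Within 500 kb of the outermost Cyp4a probes, which span 290 kb, 19 other genes were tested, of which 12 were lower in SHIVA livers, 0 were called and 4 had no overlap, against 12.2% of all genes tested, with a median log2 fold change of -0.04. Cyp4b1, a related P450 next to Cyp4a32, was higher in SHIVA livers, with 7.51, 7.69 and 7.44 in WT and 8.21, 8.16, 8.02 and 7.81 in SHIVA livers (log2 fold change 0.50, SE 0.15, adjusted p = 0.233, limma). The predicted gene LOC100044218, whose probe lies 0.90 kb from that of Cyp4a10, gave 6.74, 6.86 and 5.77 in WT and 5.18, 5.31, 5.23 and 5.50 in SHIVA livers (log2 fold change -1.15, SE 0.26, adjusted p = 0.133, limma), with no overlap. It was singled out after its values were seen, and whether its probe also reads Cyp4a10 RNA was not tested. On a list of 17 neighbours by name 12 were tested, 6 lower and 6 higher, with Pdzk1ip1 at -0.26 and Mknk1 at -0.21 the lowest.

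The genes whose profile over the 7 arrays was most like each member were looked for as those with the smallest root mean square difference after centring. For Cyp4a10 this was Cyp4a31 at 0.08, for Cyp4a31 it was Cyp4a10, and for Cyp4a32 it was Cyp4a31 at 0.15, followed by Sec22c at 0.17. As said above, the probes of these copies are not independent readings, so their likeness need not be that of the genes. An unnamed transcript of another chromosome stood second to Cyp4a10, at 0.09. For Cyp4a14 no gene came as near: H1f4, a linker histone, stood first at 0.33, followed by AI848285 at 0.42 and the peroxisomal thioesterase Acot5 at 0.43. The measure was not scaled to a gene's own spread, which was 1.38 for Cyp4a14 but 0.78 for Cyp4a10, 0.77 for Cyp4a31 and 0.77 for Cyp4a32. Those nearest to Cyp4a12a were 3 transcripts without a gene symbol, at 0.29 to 0.37.

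The lists of other genes were described by how many of their members were lower and by their median log2 fold change, which was -0.01 over all 20002 genes, of which 51.2% were lower in SHIVA livers. Of 15 other Cyp4 genes 9 were tested, with 3 lower, 6 higher and 0 called and a median of 0.11. The highest were Cyp4b1 at 0.50 and Cyp4f15 at 0.48, and the largest difference, named after its value was seen, was that of Cyp4f39 at -0.88 (adjusted p = 0.236), with overlap. Genes for electron transfer to P450, for cytochrome b5 and for heme supply were lower in 5 of 6, with 0 called and a median of -0.16. The lowest were Por, the reductase that passes electrons to P450, at -0.43 (adjusted p = 0.569) and Cyb5b at -0.26 (adjusted p = 0.576), both with overlap.

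Genes that act after omega-hydroxylation were described in the order of the route. Of 8 alcohol and aldehyde dehydrogenases tested 6 were lower, 0 called, with a median of -0.18. Aldh3a2, the fatty aldehyde dehydrogenase, was 10.98, 11.51 and 11.39 in WT and 10.60, 10.25, 10.63 and 10.72 in SHIVA livers, without overlap (log2 fold change -0.75, SE 0.18, adjusted p = 0.156, limma), and Aldh1a1 stood at -0.58 (adjusted p = 0.180). The largest difference of the list went the other way, in the mitochondrial Aldh1b1 at 1.40 (adjusted p = 0.166, with overlap), named here after its value was seen. Of 18 genes for the peroxisomal handling of dicarboxylic acids 15 were lower, 10 of them without overlap (6.02% of all genes tested), and 0 were called, with a median of -0.53. The lowest were Pex11a, a peroxisome division factor, at -1.64 (adjusted p = 0.145) and Acot3, a peroxisomal acyl-CoA thioesterase, at -1.37 (adjusted p = 0.148). The study itself reported lower expression of peroxisomal genes from these same arrays, so the direction of this list is not independent evidence. In this list WT mouse 3 was the lowest WT liver in 12 of 18 genes, against 36.6% of all genes, and without it 6 genes were called, in the setting in which calls over all genes went from 75 to 416.

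Of 12 other oxygenases and epoxide hydrolases of arachidonic acid tested 9 were lower, 0 called, with a median of -0.18. The lowest were Cyp2c37 at -0.72 (adjusted p = 0.225) and Cyp2c39 at -0.67 (adjusted p = 0.280). Cyp2c55, named after its value was seen, had the largest difference of the list, higher in SHIVA livers at 1.07 without overlap (adjusted p = 0.233).

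Among PPAR receptors and partners 11 of 14 were lower and 0 were called, with a median of -0.16. Ppara, the receptor, was 12.19, 12.61 and 12.33 in WT and 11.66, 11.75, 11.64 and 11.78 in SHIVA livers. All SHIVA livers were below all WT livers (log2 fold change -0.67, SE 0.15, adjusted p = 0.132, limma), and WT mouse 3 was not the lowest WT liver here. Med1, a subunit of the Mediator complex that binds nuclear receptors, was at -1.26 (adjusted p = 0.127), also without overlap.

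Textbook PPARα targets outside the family were lower in 32 of 32 genes, with a median of -0.70. In 12 of them the genotypes did not overlap, where 6.02% of all genes tested were lower without overlap. The list overlaps with genes the study reported on from these arrays, so its direction is not independent evidence. The 1 gene called, where 0.375% of all genes tested were called, was Retsat, a retinol saturase. Its signal was 14.04, 14.61 and 13.60 in WT and 12.72, 12.24, 12.46 and 12.68 in SHIVA livers (log2 fold change -1.56, SE 0.24, adjusted p = 0.0455, limma). The lowest fitted values were those of Cidec, a lipid droplet protein, at -2.80 (adjusted p = 0.277) and Acot1, a cytosolic thioesterase, at -2.69 (adjusted p = 0.204), and in both the genotypes overlapped. Cidec was well above background in 2 of 3 WT and 1 of 4 SHIVA livers, so that its fitted value rests in part on signals near the background. WT mouse 3 was the lowest WT liver in 23 of 32 and WT mouse 2 the highest in 28 of 32 of these genes, and the list mean ran from 11.21 to 12.26 in WT and from 10.88 to 10.92 in SHIVA livers. Without WT mouse 2 they were lower in 27 of 31. The number called moved with the setting, from 0 to 11, the latter without WT mouse 3, where 416 of all genes were called.

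**Figure D5:**
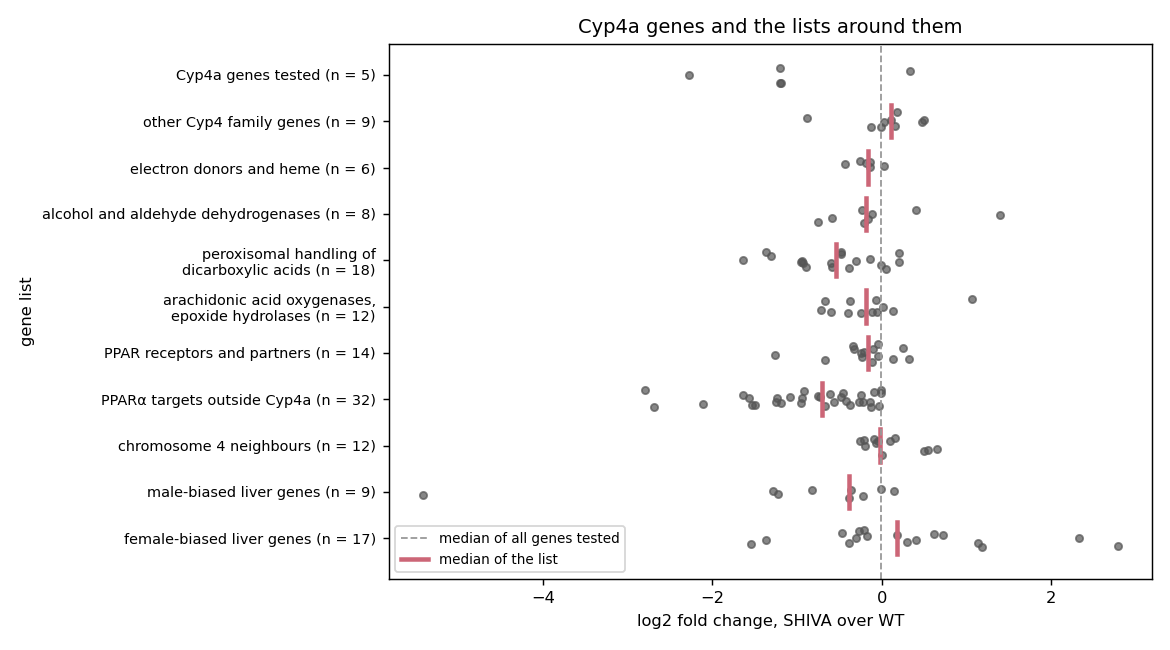
Log2 fold change of SHIVA over WT (x axis) of the 5 Cyp4a genes tested and of the genes of 10 lists (y axis), with 1 point per gene, a red line at the median of each list and a dashed line at the median of all genes tested. The PPARα targets have the lowest list median, -0.70, followed by the peroxisomal genes at -0.53, while the medians of other Cyp4 genes and of the chromosome 4 neighbours are 0.11 and -0.02.

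Sox17, whose point mutation a probe for its level cannot check, gave 4.53, 3.42 and 3.93 in WT and 4.63, 4.47, 4.77 and 4.71 in SHIVA livers, with overlap. The 7 hepatocyte markers had a mean log2 signal from 16.71 to 16.88 in WT and from 16.63 to 16.89 in SHIVA livers, with a median log2 fold change of 0.03 and 0 called. Of these markers 3 were lower and 4 higher in SHIVA livers. Ttr at -0.32 and Cyp2e1 at -0.35 were lower without overlap, where 6.02% of all genes tested were so. Tat, at 0.38, was the highest, with overlap. Kupffer cell markers were higher in SHIVA livers in 6 of 6, with list means from 9.79 to 11.04 in WT and from 10.47 to 11.45 in SHIVA livers, and neutrophil markers in 3 of 3 tested, with list means from 5.17 to 7.04 and from 4.77 to 8.37, 0 called in either. Bile duct markers were lower in 3 of 4 tested, with list means from 5.76 to 7.01 in WT and from 5.42 to 6.31 in SHIVA livers, 0 called. Red cell markers were higher in 2 of 2 tested, Alas2 of them without overlap at 0.63 (adjusted p = 0.237), with list means from 12.46 to 12.96 in WT and from 12.90 to 13.66 in SHIVA livers. Endothelium markers were higher in 3 of 5, stellate cell markers in 3 of 6 and lymphocyte markers in 2 of 4 tested, 0 called in each. Of the stellate cell markers, Rgs5 at 0.67 and Des at -0.24 had no overlap. The part of these cell types in the Cyp4a values was not tested. The share of probes well above background was 44.5% to 48.7% per array, and the number of arrays limits the precision. A single slide held all arrays, with WT in row 1 and SHIVA in row 2, and slide position and genotype cannot therefore be told apart.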

How the data were processed

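RNA of single livers was labelled with Cy3 and hybridised to 1-colour arrays. The authors deposited 1 scanner file per array, made with Agilent Feature Extraction 10.5.1.1 per the labels, whose processed intensity was detrended over the slide and not normalised between arrays, and a table of log2 values, quantile normalised per the methods, which served as an alternative. Spots marked as uneven or deviant (120 to 163 per array) were dropped, the processed intensities quantile normalised over 7 arrays and log2 values averaged per probe. The brightest probe stood for a gene, with symbols updated through GRCm38.p6. Probe positions are those of mm9. Genes well above background on at least 3 arrays were tested in R 4.3.3 with limma 3.58.1 without covariates with an adjusted p (Benjamini-Hochberg) under 0.05 as a call. Single values were compared by exact permutation, two-sided, in SciPy 1.17.1. Of each list, called genes and the 2 largest fold changes in the direction of its median were named, and for each tested member the 3 genes with the nearest profile. The members and lists were chosen with earlier results of these data known. On simulated data with 200 of 19961 genes changed, 89.5% were called at a log2 change of 2 and 33.5% at 1, and with no change 0 genes were called. Of the genes called, 4.79% at a change of 2 and 8.22% at 1 were not changed. The changed genes were taken at random with their own spread, so the rates need not hold for genes with the wide WT spread of Cyp4a genes. Alternatives were the mean signal, normexp with an offset of 50, 75th percentile scaling, the authors' table, other filters, the mean of a gene's probes, array weights, a variance trend, the methods' t-test, the replicate number as a block, and leaving out each mouse. Replicates are separate mice per the labels.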

Additional observations from a re-analysis of the deposited data

Results flagged for a closer look

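In the values of the 4 SHIVA livers, 3 of 37 probes and genes searched had a mouse far from the others, where chance gives 1.85. Cyp4a32 was 11.78 in SHIVA mouse 4, against 11.32 to 11.37 in the other mice. Pex11a was 12.12 in SHIVA mouse 2, against 11.91 to 11.94 in the other mice. Cyp2c37 was 13.44 in SHIVA mouse 4, against 13.10 to 13.15 in the other mice.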

How the results depend on the processing

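The sign of Cyp4a10, Cyp4a14, Cyp4a31 and Cyp4a32 held in all 18 alternatives run. With single mice left out the log2 fold change lay between -1.66 and -0.81 for Cyp4a10, -2.81 and -1.84 for Cyp4a14, -1.65 and -0.79 for Cyp4a31 and -1.62 and -0.72 for Cyp4a32. Cyp4a14 passed the threshold with array weights (-2.90, adjusted p = 0.0467, limma), as did Cyp4a10 probe A_55_P2092030 (-1.71, adjusted p = 0.0470). The range of the adjusted p over the alternatives of Cyp4a14 was 0.0433 to 0.452. Cyp4a12a was -0.034 with the mean signal, -0.035 with the authors' table, -0.16 with array weights and between -0.44 and 0.61 without each of WT mice 1 and 3 and SHIVA mice 1 and 3. Without any of the other 3 mice it was well above background on fewer than 3 arrays and was not tested. The causes were not tested.

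With the replicate number as a block Cyp4a14 passed, at -2.51 (adjusted p = 0.0433, limma), and no other Cyp4a gene changed its side of the threshold. Genes called were then 32 and probes 12. No WT mouse has the number 4, so SHIVA mouse 4 does not enter the genotype estimate of this setting. Leaving that mouse out without a block gave the same -2.51 for Cyp4a14 (adjusted p = 0.1495, limma). The replicate number was also the column of the slide, so that same-numbered arrays shared a column. Deviations of same-numbered mice correlated at r = -0.05, 0.01 and 0.24, and those of the other pairs of a WT and a SHIVA mouse at -0.20 to 0.20. The r of 0.24, of the mice numbered 3, was the highest. These values do not settle whether the numbers pair the mice.

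Genes called were 75, against 141 with the mean signal, 141 with the authors' table, 13 without a filter, 229 with array weights, 132 with a variance trend and 0 with the methods' t-test (2301 at an unadjusted p under 0.05), and 3 (without WT mouse 1) to 416 (without WT mouse 3) with single mice left out. They were 8 without WT mouse 2, 7 without SHIVA mouse 1 and 13 without SHIVA mouse 3. Probes called were 61, against 162, 164, 14, 287, 154 and 0 (2942 unadjusted) in the same order, 109 with a filter on all arrays, and 3 to 565 with single mice left out. On each array the authors' table ranked the spots as the mean signal did (Spearman correlation 1.0), so these settings are not independent of each other.

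Unequal change of Cyp4a14 kept its sign against each copy. The differences near 0 turned sign. That of Cyp4a10 and Cyp4a31 was -0.0073 with the 75th percentile, 0.110 with the mean signal and with normexp, 0.099 with the authors' table (exact adjusted p = 0.214 in all 3) and -0.045 to 0.043 with mice left out. That of Cyp4a10 and Cyp4a32 was 0.024 with the 75th percentile, 0.10 with the mean signal, 0.10 with normexp, 0.11 with the authors' table and -0.11 to 0.11 with mice left out. That of Cyp4a31 and Cyp4a32 was 0.031 with the 75th percentile, 0.010 with the authors' table and -0.11 to 0.064 with mice left out.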

Other observations

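Since Cyp4a12a and Cyp4a12b are sex-biased, other sex-biased liver genes were described in these females. Of 9 male-biased genes tested 8 were lower in SHIVA livers, where 51.2% of all genes tested were lower, with a median log2 fold change of -0.39. Elovl3, a fatty acid elongase, was 7.14, 7.54 and 6.21 in WT and 1.54, 1.43, 1.77 and 1.45 in SHIVA livers (adjusted p = 0.000607, limma), and Mup20, a urinary protein, was 16.42, 16.59 and 16.24 in WT and 15.26, 14.76, 15.39 and 15.13 in SHIVA livers (adjusted p = 0.0365, limma). Both passed the test, as 0.375% of all genes tested did, and were lower in SHIVA livers, where Elovl3 was well above background on 0 of 4 arrays. The number of male-biased genes called ran from 0 to 3 over the alternatives. Cyp4a12b, also male-biased, had higher signals in SHIVA livers, near the background. Of 17 female-biased genes tested 8 were lower and 9 higher, 0 called, with a median of 0.18. A1bg stood at 2.79 (adjusted p = 0.132, limma) and Hao2 at 2.33 (adjusted p = 0.150), both without overlap. The lowest of the list, named after their values were seen, were Sult3a1 at -1.55 (adjusted p = 0.111) and Acot3 at -1.37 (adjusted p = 0.148), also without overlap. Without WT mouse 1 the median of the list was -0.068.

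For Cyp4a32 a promoter sequence was at hand in RefSeq (GRCm38.p6), from 250 bases before to 50 after the start. It held 0 matches of the nuclear receptor half-site AGGTCA on either strand, where 16.3% of 32851 promoters hold one, and 1 of the SOX core ACAAT, which 31.0% hold. A direct repeat of that half-site with a single base between, allowing up to 3 mismatches, matched at 1 place, and 24.6% of promoters hold such a match. Such matches describe the letters only. Of the members, 1 had an entry.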
